A study of Mus musculus with 9 samples.

Results

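The 10 genes described here were the Notch receptors Notch1, Notch2 and Notch3, the ligands Jag1, Jag2, Dll1 and Dll4, and the target genes Hes1, Hey1 and Hey2. They were followed through lists of open chromatin regions from 3 mouse osteosarcoma cell lines. Peaks were assigned to a gene when they overlapped its span, extended by 50 kb on each side, in the mouse build GRCm38. A peak within 1000 bp of either end of the span was counted as a gene-end peak, and every other peak in the window as a distal peak. The 10 genes were 10 of 19286 protein-coding genes with at least 1 peak in such a window. Peaks of the 9 lists that overlapped each other were merged into 124230 regions, of which 173 lay in the windows of these genes.

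Chromatin accessibility was measured by ATAC-seq, in which the Tn5 transposase cuts and tags DNA that is not covered by nucleosomes. Each line was derived from a primary mouse osteosarcoma, a malignant bone tumour, and grown in DMEM with serum. The p53R172H/- line (R172H) and the p53R245W/- line (R245W) each carry a missense allele of p53 beside a null allele, and the p53-/- line (null) carries no p53 allele that makes the protein, so all 3 lack wild-type p53. Each genotype was 1 line with 3 libraries. Genotype and line therefore cannot be told apart. No label tells if the 3 libraries per line were grown as separate cultures, so p-values measure only the spread between libraries, which may be technical.

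The authors deposited 1 peak list for each library. The lists held 72840 to 74352 peaks in R172H, 75314 to 79424 in R245W and 65199 to 65942 in null libraries. The read depth behind them was not given in the sources used here. Peaks lay at the ends of 7 of 10 osteoblast marker genes in all 9 libraries, while the ends of Bglap, Ibsp and Dmp1, markers of mature osteoblasts and osteocytes, had none in any line. Of markers of other cell types, the ends of 1 of 5 endothelial genes (Kdr), 1 of 5 haematopoietic genes (Spi1), 0 of 5 epithelial genes and 3 of 5 smooth muscle and pericyte genes had a peak in all 9 libraries. Over all protein-coding genes, 55% had an end with a peak in all 9 libraries. The ends of the remaining smooth muscle and pericyte genes, Rgs5 and Cspg4, were open in 3 of 3 R245W and 0 of 3 null libraries, as were 3.3% of all coding-gene ends.

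Notch receptors are single-pass membrane proteins that are activated by Jagged and Delta-like ligands on a neighbouring cell. Ligand binding leads to cleavage by ADAM proteases and gamma-secretase, and the released intracellular domain joins the DNA-binding protein Rbpj and a Mastermind coactivator at target genes such as those of the Hes and Hey repressors. In the bone lineage the pathway restrains osteoblast maturation, and it has been studied in osteosarcoma as a driver of growth and spread.

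The promoter windows of 4 start sites are printed because they bear on the gene-end results: Notch2, whose start was open in every library while its distal regions differed most between lines; Hey2, which held the core motif of Rbpj; and Dll1, whose inner and outer start sites differed in the lists. Each window runs from 250 bases before to 50 bases after a RefSeq start (GRCm38.p6), is printed 5′ to 3′ on the gene's strand, and shows matches to the Rbpj core TGGGAA, on either strand, in capitals.
Notch2, chr3:98013288-98013587, plus strand: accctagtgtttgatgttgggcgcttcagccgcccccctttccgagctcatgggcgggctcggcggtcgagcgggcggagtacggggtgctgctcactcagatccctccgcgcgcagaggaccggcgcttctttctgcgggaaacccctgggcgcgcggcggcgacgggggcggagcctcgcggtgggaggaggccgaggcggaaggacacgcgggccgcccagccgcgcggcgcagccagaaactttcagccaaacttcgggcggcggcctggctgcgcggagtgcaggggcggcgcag
Hey2, chr10:30842734-30843033, minus strand: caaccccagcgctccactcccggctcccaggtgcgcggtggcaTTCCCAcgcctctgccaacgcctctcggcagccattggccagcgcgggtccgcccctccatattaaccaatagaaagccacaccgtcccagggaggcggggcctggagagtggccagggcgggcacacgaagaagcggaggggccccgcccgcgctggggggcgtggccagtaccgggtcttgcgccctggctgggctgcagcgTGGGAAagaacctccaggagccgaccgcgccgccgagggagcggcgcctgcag
Dll1 inner start, chr17:15375774-15376073, minus strand: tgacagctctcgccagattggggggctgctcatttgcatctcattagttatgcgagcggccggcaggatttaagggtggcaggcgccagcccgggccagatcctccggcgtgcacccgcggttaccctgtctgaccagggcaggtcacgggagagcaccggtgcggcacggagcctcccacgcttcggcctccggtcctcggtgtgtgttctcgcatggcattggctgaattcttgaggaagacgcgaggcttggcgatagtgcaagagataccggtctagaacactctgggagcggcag
Dll1 outer start, chr17:15376883-15377182, minus strand: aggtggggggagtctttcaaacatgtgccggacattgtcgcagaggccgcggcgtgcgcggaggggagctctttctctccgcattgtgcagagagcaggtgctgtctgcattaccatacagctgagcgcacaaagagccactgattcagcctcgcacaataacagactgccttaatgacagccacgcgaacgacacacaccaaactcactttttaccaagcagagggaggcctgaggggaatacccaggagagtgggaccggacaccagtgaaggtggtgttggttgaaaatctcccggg

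RefSeq promoter windows matched 8 of the 10 genes, all except Hes1 and Hey1, and gave 9 windows because Dll1 has a pair of starts. A peak overlapped 8 of the 9 windows in all 9 libraries. The exception was the outer Dll1 window, which a peak overlapped in 1 of 3 R172H, 3 of 3 R245W and 1 of 3 null libraries, while the inner Dll1 window was overlapped in all 9. The windows had a GC content of 55.7% to 86%, against a median of 52.7% over all 32851 mouse promoter windows. Their observed over expected ratio of CpG (a C followed by a G) was 0.595 to 1.14, against a median of 0.384. TGGGAA was found in 1 of the 9 windows, that of Hey2, and in 25.6% of all windows. Both Hey2 matches, beginning at positions -207 (minus strand) and -3 (plus strand) from the start site, were also matches to the longer GTGGGAA, which contains that core and which 6.38% of all windows held. The sequence CACGCG, one that Hes and Hey proteins can bind, was found on either strand in 5 of the 9 windows, one each of Notch2, Jag1, Jag2, Dll1 (the outer window) and Dll4, and in 9.27% of all windows. CACGTG, searched in the same way, was in 0 of the 9 and in 7.15% of all windows. Both sequences contain CpG, and no comparison was made with windows of like CpG content. A match describes the letters of the window and is not a measured binding site.

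Every one of the 10 genes had a gene-end peak in all 9 libraries. Over all protein-coding genes, 55% had one in all 9. No gene of the set had an end that was open in 3 of 3 libraries of 1 line and 0 of 3 of another. Against null, R172H had 3.19% of all coding-gene ends open in R172H alone and 1.27% open in null alone. For R245W against null these shares were 3.3% open in R245W alone and 0.544% in null alone, and for R172H against R245W they were 1.61% open in R172H alone and 2.57% in R245W alone. Of the 17 gene-end regions of the set, 16 were called in all 9 libraries, and the other was a weak region at the far end of Jag2 called in null replicate 2.

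Strength was read from the authors' −log10 q of each peak, expressed as a percentile among the peaks of the same library (0 the weakest, 100 the strongest). These ranks come from lists of different lengths and describe a place within a list, not a change between lists. The Notch2 start region, chr3:98013108-98014454, stood at the 92.6, 93.4 and 93.6 percentile in R172H, the 94.8, 97.6 and 97.6 percentile in R245W, and the 97.6, 98.2 and 96.9 percentile in null libraries. It was among the strongest peaks of every list, and every R172H value lay below every R245W and null value. The Notch1 start region, chr2:26502203-26504316, stood at 53.6, 52.1 and 53.9 in R172H, at 85.8, 85.1 and 85.0 in R245W, and at 54.2, 58.3 and 54.3 in null. R245W libraries placed it higher than every other library, and the R172H and null values lay close together. The Notch3 start region, chr17:32165211-32167246, stood at 55.1, 60.2 and 53.2 in R172H, at 48.5, 48.1 and 49.9 in R245W, and at 23.6, 16.7 and 31.7 in null. By its strongest peak in each library, null ranked it lowest and R172H highest. It was 1 peak in each R172H library, 2 in each R245W library and 2, 3 and 2 in null. The strongest summit lay 1310 bp inside the gene in R245W replicates 1 and 3 and null replicate 2, and 21 to 22 bp before the start in R172H. These ranks thus partly compare different sites.

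Among the ligands, the start of Jag1, chr2:137116021-137117794, was near the top of each list, at 94.2, 94.0 and 95.9 in R172H, 91.0, 93.2 and 93.2 in R245W, and 94.4, 93.1 and 92.8 in null. The start of Jag2, chr12:112928397-112930331, was weaker and ranked higher in R172H, at 58.4, 59.7 and 61.0, than in R245W, at 39.5, 22.5 and 27.5, or null, at 34.3, 17.9 and 36.7. The strongest Dll1 end region was at its far end, chr17:15365278-15366428, at 78.8, 77.2 and 77.0 in R172H, 82.7, 87.6 and 80.1 in R245W, and 74.8, 77.2 and 72.6 in null. At Jag1 every R172H value lay above every R245W value and null overlapped both, while at the Dll1 far end R245W stood above both other lines. At the start of Dll1, chr17:15375064-15377071, R172H libraries stood at 49.1, 56.1 and 56.6, R245W libraries at 62.2, 59.9 and 61.8, and null libraries at 23.6, 31.3 and 32.9. The start of Dll4, the ligand best known from blood vessel sprouting, spanned chr2:119325181-119327375 and stood at 55.4, 62.2 and 61.2 in R172H, 60.8, 63.9 and 64.2 in R245W, and 48.8, 44.3 and 39.8 in null. These regions over the Dll1 and Dll4 starts ranked lowest in the null libraries. At a further Dll1 region just upstream, chr17:15377618-15378249, null was not lowest: it stood at 61.4, 66.2 and 66.1 in R172H, 53.6, 54.5 and 46.2 in R245W, and 54.1, 52.6 and 47.6 in null.

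The strongest end regions of the target genes ranked high in all lists. Hes1, a repressor of lineage genes, had its strongest end region at chr16:30063252-30065752, at 86.1, 87.9 and 85.4 in R172H, 88.7, 86.8 and 86.7 in R245W, and 82.7, 77.9 and 82.1 in null. Hey1 encodes a repressor of the same family, and its end region, chr3:8666584-8668116, stood at 95.1, 94.6 and 95.0 in R172H, 96.5, 96.1 and 97.1 in R245W, and 83.3, 84.8 and 86.1 in null. Hey2, related to Hey1 and known from heart and vessel development, had chr10:30842179-30843922 at 88.5, 89.1 and 87.1 in R172H, 95.4, 95.2 and 95.5 in R245W, and 82.2, 83.2 and 86.6 in null. All 3 targets ranked lower in every null library than in any R172H or R245W library. The share of all gene ends with such an order was not computed, here or for the receptors and ligands. Of ends of neighbouring genes described below, the Sec16a end beside Notch1 had the same order and the Fam120b end beside Dll1 did not. The summits of the Hey2 peaks lay 147 to 75 bp before its start.

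**Figure D1:**
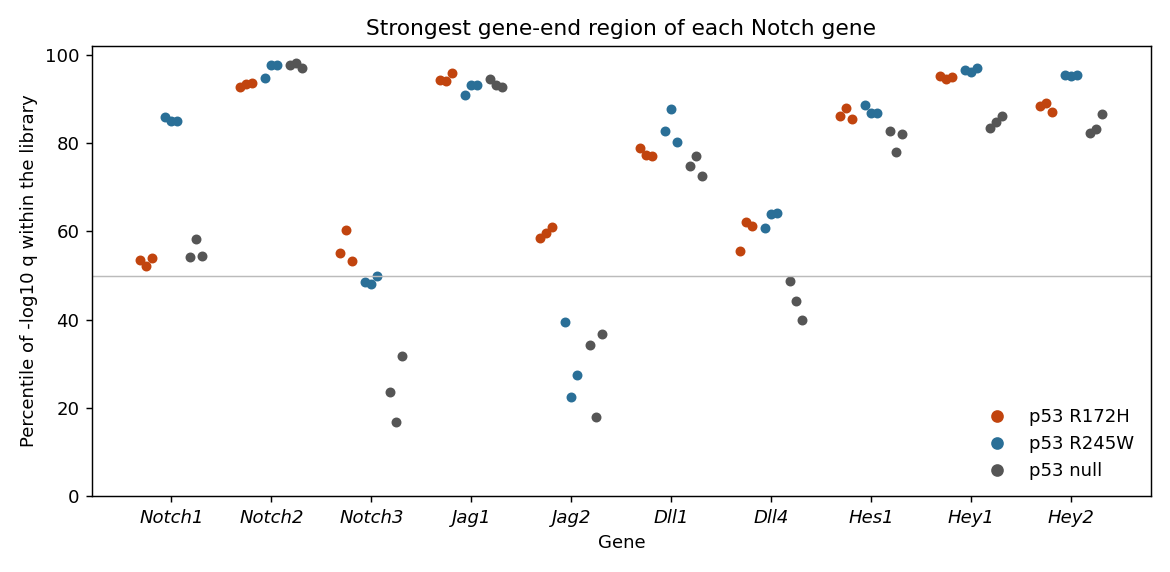
Percentile of the strongest gene-end region of each gene within each library's peaks, by the authors' −log10 q (vertical axis, 0 to 100), for R172H, R245W and null libraries; each point is 1 library. Notch2 and Jag1 sit near the top in all 9 libraries, and R245W stands apart at Notch1, at 85.0 to 85.8.

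Distal peaks were compared by their number in each library with an exact permutation test over the 280 ways to split 9 libraries into 3 sets of 3. Its statistic is the spread between line means, its smallest p is 0.00357, and p-values were adjusted by the Benjamini-Hochberg method over all 19286 genes. Of all genes, 9.15% passed an adjusted p of 0.05, and every one of these 1765 genes had the smallest p. Of the 10 Notch genes 0 passed. At an unadjusted p under 0.05 by the same test, 3 of the 10 did (Notch1, Notch2 and Jag1), against 51.2% of all genes. The median p was 0.227 for the 10 genes and 0.0429 for all genes. When 1 line differs and the other lines share one level, p can be as high as 0.0357, because 10 of the 280 splits keep that line's libraries together. A single pair of lines, 3 libraries against 3, cannot reach a p below 0.1.

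Notch2 had the widest difference between lines. It had 14, 13 and 15 distal peaks in R172H, 24, 25 and 22 in R245W, and 24, 22 and 23 in null libraries. Every R172H library lay below every R245W and null library, while R245W and null overlapped. Distal peaks averaged 14 ± 1 in R172H, 23.7 ± 1.53 in R245W and 23 ± 1 in null (SD, n = 3 each; exact permutation p = 0.0286, adjusted p = 0.0740). Notch2 is encoded on chromosome 3, which held 4.77% of R172H peaks, 6.03% of R245W peaks and 5.5% of null peaks, so the chromosome as a whole was also lowest in R172H. With counts divided by each library's peaks on the gene's chromosome, the adjusted p of Notch2 by the same exact permutation test was 0.0176, against adjusted p-values of 0.012 to 0.188 over the alternatives that kept all 9 libraries. Under that scaling 37.5% of all genes passed.

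Notch1, the receptor mutated in T-cell leukaemia, had 13, 13 and 15 distal peaks in R172H, 12, 13 and 12 in R245W, and 11, 11 and 10 in null. Both mutant lines lay above the null line without overlap, and R172H and R245W shared the value 13. It averaged 13.7 ± 1.15 in R172H, 12.3 ± 0.577 in R245W and 10.7 ± 0.577 in null (SD, n = 3 each; exact permutation p = 0.0107, adjusted p = 0.0627). Its chromosome, chromosome 2, held 8.92% of R172H peaks, 7.95% of R245W peaks and 7.51% of null peaks, in the same order. The adjusted exact permutation p of Notch1 was 0.621 with counts divided by peaks on its chromosome and 1 with lists of equal length, and ranged from 0.0238 to 1 over the alternatives that kept all 9 libraries. The length that its distal peaks covered did not lie above null in R172H: it was 7.47, 8.64 and 8.62 kb in R172H, 10.8, 11.1 and 10.3 kb in R245W, and 8.52, 8.83 and 8.74 kb in null. Notch3, a receptor of vascular smooth muscle, had 13, 17 and 15 peaks in R172H, 19, 19 and 15 in R245W, and 17, 15 and 15 in null. These ranges overlapped, and the adjusted exact permutation p was 0.455.

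Jag1, a ligand with broad roles in bone and vessels, had 9, 6 and 7 distal peaks in R172H, 5, 4 and 5 in R245W, and 4, 4 and 4 in null. All R172H libraries lay above the others. Distal peaks averaged 7.33 ± 1.53 in R172H, 4.67 ± 0.577 in R245W and 4 ± 0 in null (SD, n = 3 each; exact permutation p = 0.0143, adjusted p = 0.0627). Jag1 also lies on chromosome 2, whose peak shares ran in the same order. Its adjusted exact permutation p was 0.0663 with counts divided by peaks on the chromosome and 0.894 with a 25 kb window, and ranged from 0.0389 to 0.894 over the alternatives that kept all 9 libraries. Dll4 had 9, 9 and 8 peaks in R172H, 9, 9 and 9 in R245W, and 8, 5 and 6 in null. R245W lay above null, and R172H met null at 8 (adjusted exact permutation p = 0.124). Dll4 also lies on chromosome 2, whose peak share was lowest in null. With counts divided by peaks on the chromosome, its adjusted exact permutation p was 0.571. Jag2 had 8 to 12 peaks and Dll1 2 to 5 in any library, and their adjusted p-values by the exact permutation test were 0.190 for Jag2 and 0.592 for Dll1.

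The target genes had few distal peaks, and their lines overlapped. Hes1 had 8, 6 and 7 in R172H, 6, 6 and 7 in R245W, and 5, 7 and 5 in null (adjusted exact permutation p = 0.421). Hey1 had 0 to 2 and Hey2 3 to 4 in any library, each with an adjusted exact permutation p of 1. Summed over the 10 genes, there were 83, 87 and 85 distal peaks in R172H, 92, 93 and 86 in R245W, and 87, 82 and 80 in null, which overlapped between lines.

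**Figure D2:**
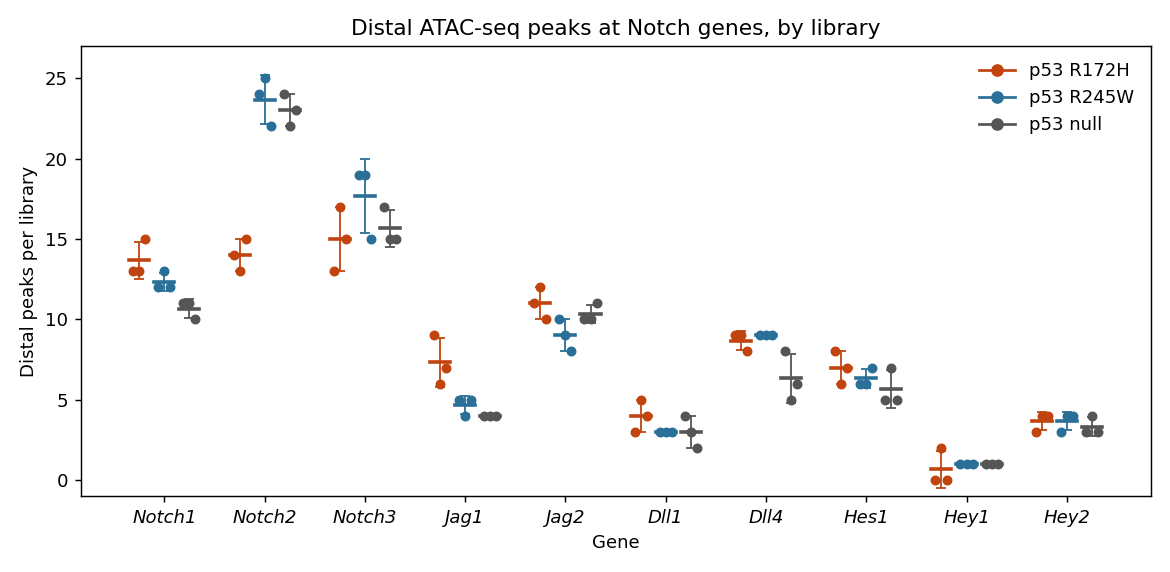
Number of distal peaks (vertical axis) in the 50 kb window of each gene, for R172H, R245W and null libraries; points are libraries, and bars are line means. R172H lies below both other lines at Notch2, with 13 to 15 peaks against 22 to 25 in R245W and 22 to 24 in null.

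By pairs of lines, the distal counts of R172H lay above those of null without overlap for 2 of the 10 genes (Notch1 and Jag1; 27.3% of all genes) and below them for 1 (Notch2; 16.3% of all genes). R245W lay above null for 2 (Notch1 and Dll4; 31.5% of all genes) and below null for 0 (7.5% of all genes). R172H lay above R245W for 1 (Jag1; 15.5% of all genes) and below R245W for 1 (Notch2; 26.5% of all genes). The comparisons of R172H and R245W with null share the null libraries. The median difference in mean distal peaks over the 10 genes was 0.833 for R172H minus null, against 0.333 over all genes. It was 0.667 for R245W minus null, the same as over all genes, and 0.333 for R172H minus R245W, against -0.333 over all genes.

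The 173 regions comprised 17 at gene ends, 44 elsewhere inside a gene span and 112 in the flanks. Of them 59, or 34.1%, were called in all 9 libraries, against 29.4% of all regions. The share differed by position: 94.1% at gene ends (16 of 17), 13.6% inside genes (6 of 44) and 33% in flanks (37 of 112). A region was called line-specific between a pair of lines when it was in 3 of 3 libraries of 1 line and 0 of 3 of the other. At least 1 pair met this for 0 of 17 gene-end, 18 of 44 internal (40.9%) and 23 of 112 flanking regions (20.5%). These shares by position were not computed over all regions, so they are not a trait of the Notch genes. Notch2 by itself held 25 of the 44 internal regions and 14 of the 41 line-specific ones. Median widths were 1578 bp at gene ends, 565.5 bp inside genes and 716.5 bp in flanks. The 41 line-specific regions were mostly of middling or low rank: the median of their lowest percentile was 35.1, and 14 of the 41 lay above 50.

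Between R172H and null, 13 of 152 Notch-gene regions were in R172H alone (8.55%, against 16.8% of all regions) and 20 in null alone (13.2%, against 11.9%). Between R245W and null, 9 of 144 were in R245W alone (6.25%, against 12.5%) and 6 in null alone (4.17%, against 5.03%). Between R172H and R245W, 8 of 155 were in R172H alone (5.16%, against 12.4%) and 15 in R245W alone (9.68%, against 14.9%). Without R172H replicate 2, the number in R172H alone was 14. The Notch-gene share lay below the share of all regions in every direction except null alone against R172H, and these gaps were not tested. In that exception, Notch2 by itself held 10 of the 20 regions (10 of its 34, or 29.4%). Some depended on the setting. Null alone against R245W was above all regions with lists of equal length (8.55%, against 8.35%), when peaks had to cover 50% of a region (8.57%, against 6.17%), with a 25 kb window (5.05%, against 5.03%) and without R245W replicate 1 (6.52%, against 5.65%), and null alone against R172H was below all regions when 2 of 3 libraries sufficed (14.5%, against 15.2%). Seen over the 3 lines at once, 11 regions (6.36%, against 6.21% of all regions) were in every R245W and null library and no R172H library. In every R172H library and no other there were 7 (4.05%, against 9.83%), in every R245W library and no other 3 (1.73%, against 5.79%), and in every null library and no other 5 (2.89%, against 2.74%). In every R172H and R245W but no null library there were 4 (2.31%, against 3.04%), and in every R172H and null but no R245W library 0 (against 0.858%).

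**Figure D3:**
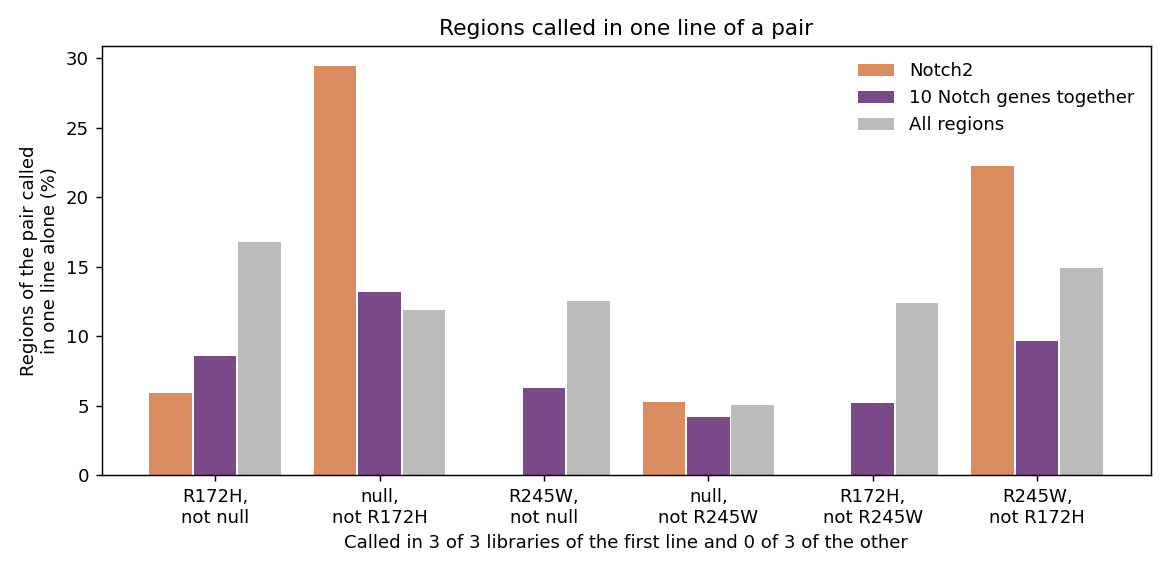
Share of regions (percent) called in 3 of 3 libraries of 1 line and 0 of 3 of the other, in each pair and direction. Bars are Notch2, the 10 Notch genes together and all regions. Null alone against R172H, 13.2% beside 11.9%, is the one direction in which the 10 genes together do not lie below all regions. Notch2 lies above all regions there (29.4%), in null alone against R245W (5.26% beside 5.03%) and in R245W alone against R172H (22.2% beside 14.9%). It lies below them in the other directions.

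Notch2 held 41 of the 173 regions, 25 of them inside the gene, and 14 were line-specific in some pair. Against null, 2 of 34 were in R172H alone and 10 in null alone, 8 of these 10 inside the gene. The null-alone share was 29.4%, beside 18.5% (15 of 81 regions) in the sequence from 50 kb to 1 Mb on either side. Against R245W, 0 of 36 were in R172H alone and 8 in R245W alone (22.2%, beside 27.2% or 25 of 92 in the same surroundings). In total 7 Notch2 regions were in all R245W and null libraries and in no R172H library. The line-specific regions absent from R172H lay inside the gene and in its upstream flank, and such regions were also found around it. In the downstream flank the line-specific region was in R172H and not in null.

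Individual regions at Notch2 went in more than one direction. At 48.4 kb before the start, chr3:97964463-97965759 was in no R172H library, at the 28.0, 22.6 and 11.2 percentile in R245W, and at 89.5, 88.0 and 90.5 in null. A region 19.5 kb before the start, chr3:97993320-97994784, was likewise in no R172H library, at 31.0, 40.9 and 27.2 in R245W, and at 69.8, 70.9 and 71.1 in null. Both ranked far higher in null than in R245W. Inside the gene, 72.6 kb from the start, chr3:98085556-98086697 stood at 78.5, 79.7 and 77.0 in R172H, at 2.98 in R245W replicate 2 alone, and was in no null library. At 88.2 kb from the start, chr3:98101276-98102256 was in no R172H or R245W library and stood at 64.4, 58.4 and 66.4 in null. A strong R172H region thus lay within a gene that otherwise had fewer R172H peaks.

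**Figure D4:**
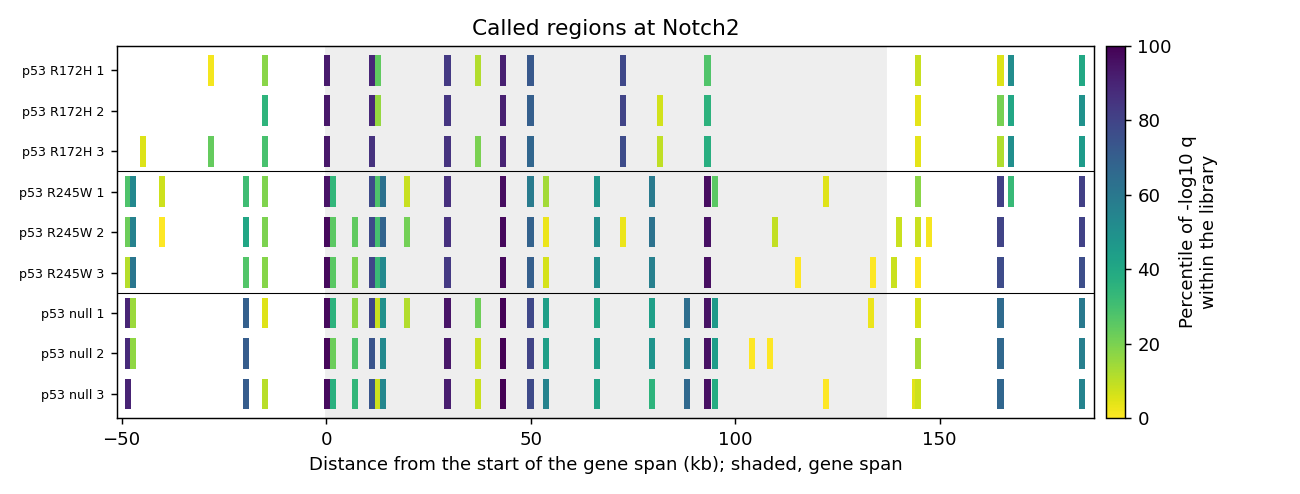
Regions around Notch2 by distance from its start (horizontal axis, kb), with 1 row for each R172H, R245W and null library. Each mark is a merged region in which that library had a peak, drawn at a minimum width, so peaks in 1 region share a mark. Colour gives the percentile of −log10 q within the library, and the shaded band is the gene span. R172H libraries had 13 to 15 distal peaks and the R245W and null libraries 22 to 25.

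Notch1 had 27 regions, with 3 in R172H alone and 3 in null alone between those lines. Neighbouring regions in its body gave opposite patterns. At 10.0 kb from the start, chr2:26493477-26494189 stood at the 44.6, 20 and 24.8 percentile in R172H, at 37.4, 36.8 and 35.4 in R245W, and was in no null library. Only 342 bp away, chr2:26494532-26495230 was in no R172H library, and stood at 76.5, 78.2 and 80.3 in R245W and at 67.2, 68.0 and 63.6 in null. Upstream, chr2:26547283-26547858, 43.7 kb before the start, was in R172H alone at 53.8, 56.8 and 53. At 39.8 kb before the start, chr2:26542796-26544371 was in no R172H library, at 54.8, 58.3 and 61.0 in R245W and at 22.6, 12.5 and 19.9 in null.

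Notch3 also had 27 regions, and a similar pair of neighbours near its start. Chr17:32160825-32161811, 5.6 kb inside the gene, was in no R172H library, at 10.6 in R245W replicate 1 alone, and at 85.5, 87.8 and 86.5 in null. This was a strong null region next to a start region whose strongest peak ranked lowest in null. The region 150 bp from it, chr17:32161962-32162626, was in R245W alone at 24.1, 22.3 and 25.6. Beyond the far end, 17.6 kb downstream, chr17:32103032-32103439 was in no R172H library, at 15.6 in R245W replicate 2, and at 46.1, 37.3 and 31.2 in null. At 7.0 kb downstream, chr17:32113530-32114073 stood at 26.8 and 17.0 in 2 of 3 R172H libraries, at 19.2, 27 and 35.0 in R245W, and was in no null library.

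Of the 12 Jag1 regions, chr2:137163568-137164287, 47.4 kb before the start, was in R172H alone at 25.4, 26.0 and 30.7. Chr2:137039509-137040263, 41.6 kb beyond the far end, was in both mutant lines, at 39.2, 35.1 and 39.4 in R172H and 11.2, 2.19 and 18.9 in R245W, and in no null library. Inside the gene each of the other lines had a region of its own: chr2:137082781-137084084 was in R245W alone at 31.3, 39.7 and 21.5, and chr2:137109090-137110017 in null alone at 48.4, 51 and 51.9. Jag2 had 18 regions and its line-specific ones were weak, at 7.21, 8.99 and 9.58 in R172H alone (chr12:112903882-112904604) and at 3.48, 5.40 and 2.91 in null alone (chr12:112917135-112917671).

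Dll1 had 9 regions. Chr17:15422957-15423925, 46.5 kb before its start, was in both mutant lines, at 19.7, 20.7 and 3.40 in R172H and 35.2, 46.5 and 28.9 in R245W, and in no null library. Chr17:15380392-15380995, 3.8 kb before the start, was in null alone at 30.6, 39.0 and 33.4. Chr17:15356608-15357460, 10.3 kb beyond the far end, stood at 18.8 and 27.4 in 2 of 3 R172H libraries and at 25, 32.7 and 25 in R245W, and was in no null library. The first and the third of these Dll1 regions were therefore absent from null and present in all R245W libraries. Dll4 had 17 regions, of which chr2:119344269-119344785 was in R245W alone at 7.53, 8.72 and 2.40 and chr2:119355799-119356342 in R172H alone at 5.72, 26.9 and 14.8.

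Hes1 had 13 regions, and its strongest line-specific one was shared by the mutant lines. Chr16:30033283-30034818, 31.3 kb below the gene's lower coordinate, stood at 71.8, 76.0 and 69.7 in R172H and at 36.3, 45.4 and 28.5 in R245W, and was in no null library. Chr16:30059166-30059743, 5.9 kb below it, was in R172H alone at 52.7, 51.3 and 51.9. On the other side, 22.7 kb above the upper coordinate, chr16:30090082-30090905 was in no R172H library and stood at 62.5, 67.3 and 65.5 in R245W and 43.4, 43.0 and 46.3 in null. Chr16:30096392-30097005, 28.9 kb above it, was in null alone at 12.5, 25.8 and 27.3. Hes1 thus had line-specific regions on both sides at similar distal totals.

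Hey1 and Hey2 had no line-specific region. Hey1 had 3 regions. The region inside it, chr3:8664589-8665161, stood at 17.9 in R172H replicate 2 alone, at 58.5, 60.4 and 54.5 in R245W, and at 46.5, 44.9 and 52.0 in null. Hey2 had 6 regions, 4 of them in all 9 libraries. Chr10:30786103-30788223, 45.2 kb beyond the far end, was one of these, at 51.4, 48.9 and 58.3 in R172H, 1.20, 10.4 and 17.3 in R245W, and 50, 55.9 and 45.1 in null, so the R245W libraries ranked it lowest.

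Beyond the 10 genes, 35 other pathway genes were examined (further ligands, targets, glycosyltransferases, gamma-secretase subunits, proteases, coactivators and corepressors). Of these, 28 had an open end in all 9 libraries, and 3 had an end that was line-specific. Hes5, a target gene, had an open end in 3 of 3 R172H, 1 of 3 R245W and 0 of 3 null libraries, while its RefSeq promoter window was overlapped by a peak in none of the 9. Rbpj, the DNA-binding partner of Notch, had its outer span end open in R172H alone, at the 47.1, 34.2 and 47.5 percentile; its RefSeq starts, 34.6 and 34.7 kb inside the span, had peaks in all 9 libraries. Dner, which encodes a Notch-like transmembrane protein, had an open end in 3 of 3 R172H (69.2, 62.6 and 67.7), 0 of 3 R245W and 3 of 3 null libraries (60.4, 53.2 and 55.0). Either span end counted as open, so the 28 include genes with a RefSeq start window that differed between lines. The Notch4 window and 1 Dlk2 window had a peak in 3 of 3 R245W, 0 of 3 R172H and 0 of 3 null libraries. A Maml2 window 1.4 kb inside the span had one in 3 of 3 R172H, 3 of 3 R245W and 0 of 3 null libraries.

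For distal peaks, 6 of the 35 passed the adjusted exact permutation test (17.1%, against 9.15% of all genes), with R172H highest at 1, R245W at 3 and null at 2. Maml2 and Maml3 encode Mastermind coactivators, of which Maml1 did not pass (adjusted exact permutation p = 0.119). Maml2 had 31, 30 and 30 distal peaks in R172H, 21, 22 and 22 in R245W, and 17, 19 and 16 in null. Maml3 had 26, 25 and 25 in R172H, 39, 42 and 37 in R245W, and 27, 28 and 30 in null. Maml2 was highest in R172H and Maml3 in R245W, without overlap. Maml3 lies on chromosome 3, whose peak share was also highest in R245W (6.03%, beside 4.77% in R172H and 5.5% in null). Dner had 6, 5 and 5 in R172H, 10, 10 and 9 in R245W, and 13, 11 and 14 in null. Dner was lowest in R172H and highest in null, without overlap. Maml2, Maml3 and Dner each had the smallest exact permutation p of 0.00357 (adjusted p = 0.0390). Dlk1 and Fbxw7 also passed and were named after their values were seen. Dlk1 encodes a non-canonical ligand, and Fbxw7, also on chromosome 3, marks the Notch intracellular domain for degradation.

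As a description of likeness, distal counts over the 9 libraries were correlated between genes on different chromosomes. Most like Notch2 among 4209 genes of similar count were Pef1 (Pearson r = 0.990), Mt1 (r = 0.982) and Hcrtr1 (r = 0.979). Most like Notch1 among 9455 were Arhgap8 (r = 0.970), Nav3 (r = 0.964) and Plin5 (r = 0.962). All of these values come from the same 9 lists, so list length is shared by every point.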

How the data were processed

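ATAC-seq peak lists of 9 libraries from 3 lines were analysed. Per the submitters' processing notes, the tools named were MACS2 2.1.0, Bowtie 1.1.2, deepTools, Trimmomatic 0.33 and bcl2fastq 2.17, with build GRCm38. Each list gave the authors' score, fold enrichment (a ratio over the local background), −log10 p and −log10 q of each peak, per library; the lowest deposited −log10 q was 1.3. The deposited lists hold no read counts, so depth is unknown, and no interval was computed; a list with more reads or a better signal can hold more peaks. No read shift or duplicate filter is given in the sources used here.

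Coordinates were converted to 1-based. Peaks of all lists that overlapped by at least 1 bp were merged. Gene spans came from RefSeq (GRCm38.p6) protein-coding genes. Counts per gene were compared by an exact permutation test over libraries (one-sided on the between-line sum of squares) with Benjamini-Hochberg adjustment, tested on simulated data, in Python 3.11.15 with numpy 2.4.6, pandas 2.3.3 and scipy 1.17.1. Alternatives changed the window, the gene-end distance, the q threshold, the scaling, the call rule and the overlap, and left out each library. At most 0.267% of peaks were identical between 2 libraries.

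All 10 genes are named, with up to 4 line-specific regions each, those with the highest lowest percentile, and their strongest gene-end region. Other pathway genes are named for a line-specific end, or as the 4 that passed with the widest range of line means. Among these 4, 1 gene is not reported here. Like genes are the 3 with the highest correlation for the 2 members with most line-specific regions. Members, lists and tests were chosen with earlier results of these data known.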

Additional observations from a re-analysis of the deposited data

How the results depend on the processing

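Over the alternatives, the 10 open gene ends and the 0 line-specific ends did not move. The count of Notch genes passing the distal test, 0 as reported, was also 0 without each library in turn. It was 1 with lists shortened to equal length (Notch2; 9.49% of all genes), 1 with gene ends at 500 bp (Jag1; 9.19%), 1 with counts scaled by chromosome totals (Notch2; 37.5%), 2 scaled by library totals (Notch2 and Jag2; 39.4%), 3 with a 100 kb window (Notch1, Notch2 and Dll4; 30%) and 5 with base pairs covered in place of peak counts (Notch1, Notch2, Dll4, Hes1 and Hey2; 73%). The share of all genes passing moved as well in most of these, and the cause was not tested.

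A 100 kb window holds more regions by construction. With it, line-specific counts were 24 for R172H alone and 31 for null alone against each other, 19 for R245W alone against null, and 17 for R172H alone and 32 for R245W alone against each other. With 25 kb they were 7 for R172H alone against null and 5 for R172H alone against R245W. When 2 of 3 libraries sufficed, they were 24 for R172H alone against null and 19 against R245W. Null alone against R245W, 6 as reported, was 10 at equal list lengths and 12 when peaks had to cover 50% of the merged region; the cause was not tested. The order within a pair turned round in places: R245W alone against null alone was 7 against 10 at equal list lengths (9 against 6 as reported), and R172H alone against null alone was 24 against 22 when 2 of 3 libraries sufficed (13 against 20 as reported). Without single libraries, R172H alone against R245W ranged from 8 to 14, the highest without R172H replicate 2, which by construction lets more regions meet the rule.

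The replicate numbers showed no strong pairing of libraries. Correlations of deviations were -0.0117 to 0.0246 for libraries with the same number and -0.0328 to 0.0315 for those with different numbers. With a replicate block, 36 splits remain, the smallest p is 0.0278, and 0 Notch genes and 0 of all genes passed. Unknown depth limits every absence: a region without a peak may be closed or under the caller's threshold. With 3 libraries from 1 line each, p-values say nothing about other lines of the same genotype.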

Other observations

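In the windows, 12 flanking regions lay at or within 1000 bp of an end of a neighbouring coding gene, and 8 of these 12 had a peak in every library. The Fam120b end beside Dll1 stood at the 97.3, 98 and 98 percentile in R172H, 98.3, 99.0 and 99.0 in R245W, and 98.2, 99.2 and 98.5 in null. A Sec16a end beside Notch1 stood at 98.4, 98.7 and 99.1 in R172H, 98.5, 99.0 and 98.8 in R245W, and 93.6, 94.8 and 95.0 in null. Both were among the strongest peaks of every list.

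An end of Slx4ip lay in or within 1000 bp of the far-end region of Jag1, which stood at 9.36, 13.9 and 4.19 in R172H, 31.3, 32.2 and 37.4 in R245W, and 62.9, 61.0 and 62.6 in null. Its order between lines ran opposite to the distal peak counts of Jag1, which were highest in R172H. Beside Notch3, the end of Ephx3, an epoxide hydrolase gene, stood at 46.2, 34.7 and 32.8 in R172H, 1.68, 13.3 and 16.6 in R245W, and 8.39, 13.1 and 6.03 in null, so it ranked highest in R172H.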
